A study of Mus musculus with 30 samples.

Results

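The interval from 3 h to 12 h of continuous treatment was examined by comparing newly made RNA between the libraries collected at these times. Its members were chosen by collection time, which took 6 of 15 libraries and 12 of 30 deposited samples, since each library was sequenced in 2 runs. The assay was TT-seq: cells take up 4-thiouridine briefly, and only the RNA that carries it is purified and sequenced. The table listed 382367 transcription units, of which 20541 were genes, 319797 were single repeat copies in 1065 families and 42029 were non-coding units. All were mouse embryonic stem (ES) cells of a line named dTKO, with the genotype Suv39h1fl/fl; Suv39h2-/-; Setdb1fl/fl, grown in medium with LIF and fetal calf serum on gelatin.

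The 3 h group (3 libraries) and the 12 h group (3 libraries) both had auxin (100 µg/ml) together with dTAG13 (0.5 µM), agents that trigger the breakdown of tagged proteins. The 0 h group (3 libraries) was the start of the time course, and the labels list the same agents and doses for it. It served here only to say whether a unit had already moved by 3 h and how it stood at 12 h. The labelling step used 1 mM 4-thiouridine for 10 min. Yeast RNA carrying thiouracil served as spike-in, 1 µg per 110 µg of total RNA. The labels name no tags, no batch and no culture date, and among the libraries given here none at 3 h or 12 h was without the agents, so time in culture and time with the agents cannot be told apart. The design text calls the replicates biological repeats of the line, and the p-values measure the spread between these libraries.

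Suv39h1, Suv39h2 and Setdb1 encode enzymes that place the H3K9me3 mark on histone H3, which is bound by HP1 proteins and keeps many retroviral repeats and satellite arrays silent. Long terminal repeats (LTRs) of such retroviruses carry promoters, so that a silenced copy near a gene can act on it when its silencing ends. The aryl hydrocarbon receptor (AhR), which enters the results below, is a ligand-activated transcription factor that induces xenobiotic-metabolising enzymes and, with them, genes that shut the receptor off again.

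The values, called scaled reads here, are reads per unit multiplied by 1 factor per library by the authors and not divided by length. Recovered whole reads ran from 37.1 to 42.3 M (1 M is 1e+06) per library at these times. The 3 methyltransferase genes of the genotype had signal throughout: Setdb1 held 758, 743 and 896 scaled reads at 3 h and 919, 1201 and 1117 at 12 h. Suv39h1 held 402, 420 and 504 at 3 h and 550, 683 and 626 at 12 h. Suv39h2 held 947, 892 and 1062 at 3 h and 1091, 1354 and 1126 at 12 h, although the genotype lists it as -/-; the deleted part is not given, and the proteins were not measured in these files, so the RNA checks neither genotype nor depletion. All 8 ES cell markers were above the detection minimum, with a summed level of 12183 to 13915 scaled reads at 3 h and 15236 to 19378 at 12 h (after rescaling, 1 rose and 5 fell). The summed fibroblast markers were at 219.5 to 246 and 319 to 389, primitive endoderm markers at 309 to 369 and 426 to 520, and trophectoderm markers at 93.9 to 101 and 114 to 164. Postn, Sox17 and Elf5 stayed under 10 scaled reads in all 6 libraries. Fewer cells of a type and less RNA per cell cannot be told apart in such bulk samples.

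Signal over genes, repeats and non-coding units was higher at 12 h than at 3 h on the scale of the deposited values. Genes other than the ribosomal precursor Rn45s summed to 13.6, 12.5 and 14.7 M scaled reads at 3 h and to 16.4, 20.8 and 18.3 M at 12 h. The groups did not overlap, and their means differed 1.36-fold (13.6 ± 1.12 M against 18.5 ± 2.19 M, SD, n = 3 each; two-sided exact permutation p = 0.1, the smallest that 3 against 3 libraries can give). Single repeat copies summed to 0.650, 0.581 and 0.657 M at 3 h and 0.921, 1.17 and 1.00 M at 12 h. That 1.64-fold difference was the largest of the 3 classes, again without overlap (exact permutation p = 0.1). Non-coding units summed to 3.03, 2.78 and 3.33 M at 3 h and 3.69, 4.40 and 3.96 M at 12 h, a ratio of 1.32 (exact permutation p = 0.1). At 0 h the same sums were 15.7, 17.4 and 15.9 M, 0.694, 0.765 and 0.718 M, and 3.57, 3.62 and 3.69 M, so that the 3 h libraries lay below 0 h in all 3 classes.

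**Figure D1:**
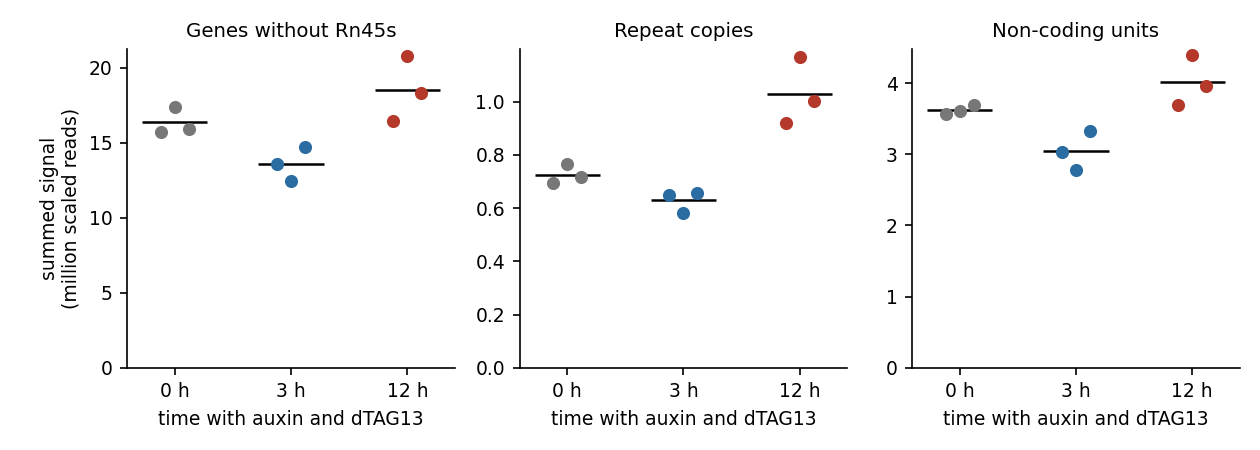
Summed signal in M scaled reads (vertical axis) by hours with auxin and dTAG13 (horizontal axis) for genes without Rn45s, repeat copies and non-coding units; points are libraries and bars are means of 3. Every 12 h library lies above every 3 h library in each panel, and the repeat copies have the largest ratio, 1.64.

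How much of this is a change of scale depends on the size factors, and the file does not show whether they rest on the yeast spike-in. Each comparison was therefore also made after rescaling the libraries so that the median gene had the same level in all. Rescaling moved the median difference of genes between 12 h and 3 h from 0.42 to -0.00 on the log2 scale. The ratio of summed signal then became 1.02 for genes and 0.986 for non-coding units (exact permutation p = 0.1 and p = 0.5), while repeat copies stayed at 1.22 (exact permutation p = 0.1). Without any scaling, of the reads in genes other than Rn45s, repeat copies and non-coding units, repeat copies took 3.77%, 3.67% and 3.52% at 3 h and 4.37%, 4.43% and 4.30% at 12 h. Without the MMERVK10C and RLTR10 families, the repeat sum still differed 1.47-fold, or 1.09-fold after rescaling.

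Among genes, 15261 had a mean of at least 10 scaled reads and were tested with limma on log2(value + 1). On the deposited scale 11126 genes (72.9%) rose and 30 (0.197%) fell from 3 h to 12 h at an adjusted p (Benjamini-Hochberg over all tested genes) under 0.05. After rescaling, 1996 (13.1%) rose and 1348 (8.83%) fell, so that the share of calls that were rises went from 99.7% to 59.7%. All 1996 of these rises and all 30 of these falls were called on both scales, and 254 genes called as rises on the deposited scale were called as falls after rescaling. Calls past 2-fold were made for 2.73% of genes upward and 0.0262% downward on the deposited scale, and for 1.08% and 0.105% after rescaling, of which 165 rises and 4 falls were past 2-fold on both. The genes called on both scales carry the account that follows, and levels and log2 differences are given on the deposited scale unless the rescaled one is named.

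Paths of rise and paths of fall were told apart by the calls of 3 h against 0 h and of 12 h against 0 h in the same fit. A gene was newly risen when it had no call at 3 h, rose from 3 h to 12 h and stood above 0 h at 12 h: 1773 genes on the deposited scale, 1055 after rescaling and 812 on both. Genes that rose by 3 h and rose again by 12 h numbered 83, 267 and 68 in the same order. Genes that fell by 3 h and then rose numbered 1556, 353 and 352. On the other side, 5, 86 and 5 genes rose by 3 h and then fell, 17, 750 and 17 were newly fallen by 12 h, and 8, 218 and 5 fell in both steps. Of all tested genes, 0.636% had risen and 13.5% had fallen from 0 h to 3 h (4.98% and 8.13% after rescaling), and 12.9% and 2.07% from 0 h to 12 h (15.8% and 14.9%). The comparisons share libraries, the 3 h ones between the first step and the second, so these counts describe paths and test nothing further.

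The counts of paths on the deposited scale moved with single libraries. Newly risen genes numbered 4716 without 12 h replicate 1, 703 and 995 without 12 h replicates 2 and 3, and 909 and 939 without 0 h replicates 1 and 3. Genes that fell and then rose numbered 912, 276 and 816 without 0 h replicates 1, 2 and 3, 608, 243 and 2383 without 3 h replicates 1, 2 and 3, and 2731 without 12 h replicate 1. Without 3 h replicate 1, 46 genes rose in both steps. Leaving out 3 h replicate 3 left 5 newly fallen genes, and leaving out 12 h replicate 1 left 10. Genes that fell in both steps numbered 16 without 12 h replicate 2 and 3 to 5 when a library of 0 h or 3 h was left out. After rescaling fewer counts moved by over 1.5 times: genes that fell and then rose were 224 and 234, genes that rose and then fell 57 and 50, and genes that fell in both steps 143 and 143 without 3 h replicates 2 and 3, and newly fallen genes were 491 without 12 h replicate 2.

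The newly risen genes had no call at 3 h and stood above 0 h at 12 h. Cybb (chrX:9435254-9469324 on mm10, as are all coordinates here), which encodes the catalytic subunit of the phagocyte NADPH oxidase, held 22.8, 27.4 and 18.9 scaled reads at 0 h. It held 31.1, 17.2 and 21.7 at 3 h and 137, 178 and 140 at 12 h. The 12 h libraries lay far above both earlier groups, by a log2 difference from 3 h of 2.68 ± 0.17 (SE) and, after rescaling, of 2.27 ± 0.14 (limma, adjusted p = 2.9e-14). Asb4 (chr6:5383386-5433021), an adaptor of a ubiquitin ligase, went from 24.3, 15.9 and 19.4 to 107, 130 and 116 (rescaled log2 difference 2.12 ± 0.11, limma adjusted p = 3.2e-16). Cyp2b23 (chr7:26665227-26686430), a cytochrome P450 gene, went from 1062, 769 and 892 to 3302, 4585 and 4206 (rescaled 1.73 ± 0.06, limma adjusted p = 4.2e-21). Dpep1, a membrane dipeptidase, Usp17le, a deubiquitinating enzyme gene, and Dcdc2a, a doublecortin-domain gene, rose by rescaled log2 differences of 2.07, 1.92 and 1.33. The 812 genes newly risen on both scales had smaller changes as a group, with a median rescaled log2 difference of 0.27 against -0.00 over all tested genes.

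Several genes that rose steeply from 3 h to 12 h were already called above the 0 h level by 3 h after rescaling. Clec2f (chr6:129014112-129020527), a C-type lectin-like gene of the natural killer gene complex, held 3.25, 3.33 and 2.57 scaled reads at 0 h. It held 33.8, 13.999 and 13.958 at 3 h and 293, 418 and 346 at 12 h. The 3 groups did not overlap, and the second step was 4.14 ± 0.15 on the log2 scale, or 3.73 ± 0.18 after rescaling (limma, adjusted p = 1.9e-17). Its neighbour Clec2g (chr6:128934381-128984707) went from 87.8, 49.0 and 53.5 to 539, 720 and 641. Mctp1 (chr13:76384961-77031810), which encodes a calcium-binding membrane protein with C2 domains, went from 188, 98.6 and 136 to 1002, 1245 and 1040 (rescaled 2.58 ± 0.10, limma adjusted p = 1.9e-19). At 0 h Mctp1 held 86.2, 101 and 97.7 scaled reads, so that its 0 h and 3 h libraries overlapped on the deposited scale. In all 3 of these genes 3 h replicate 1 was the highest library at 3 h, and it stayed below each 12 h library.

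Further genes among the 10 with the largest rises that met the naming rule (an ordinary symbol, a call on both scales, a mean above the lowest 25% and no overlap of libraries) encode secreted or metabolic enzymes and receptors. The matrix metalloprotease genes Mmp12 and Mmp1b rose by rescaled log2 differences of 3.11 ± 0.14 and 3.06 ± 0.22, from 61.5, 33.7 and 32.6 scaled reads to 403, 548 and 497 in Mmp12. Akr1c21, a steroid-converting aldo-keto reductase, rose by 2.75, Rdh16, a retinol dehydrogenase, by 2.62, Cd209c, a lectin receptor of the DC-SIGN family, by 2.65 and Nat8f2, an acetyltransferase-family gene, by 2.61. The vomeronasal receptor gene Vmn2r96 rose by 3.33 ± 0.32 from 3.38, 1.91 and 0 scaled reads to 22.8, 31.8 and 34.2; such low starting values make its fold depend on the pseudocount. Clec2, Vmn2r and Zscan4 genes have near-identical relatives, and since the sources used here do not give the handling of reads with several positions, the split between relatives is uncertain.

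**Figure D2:**
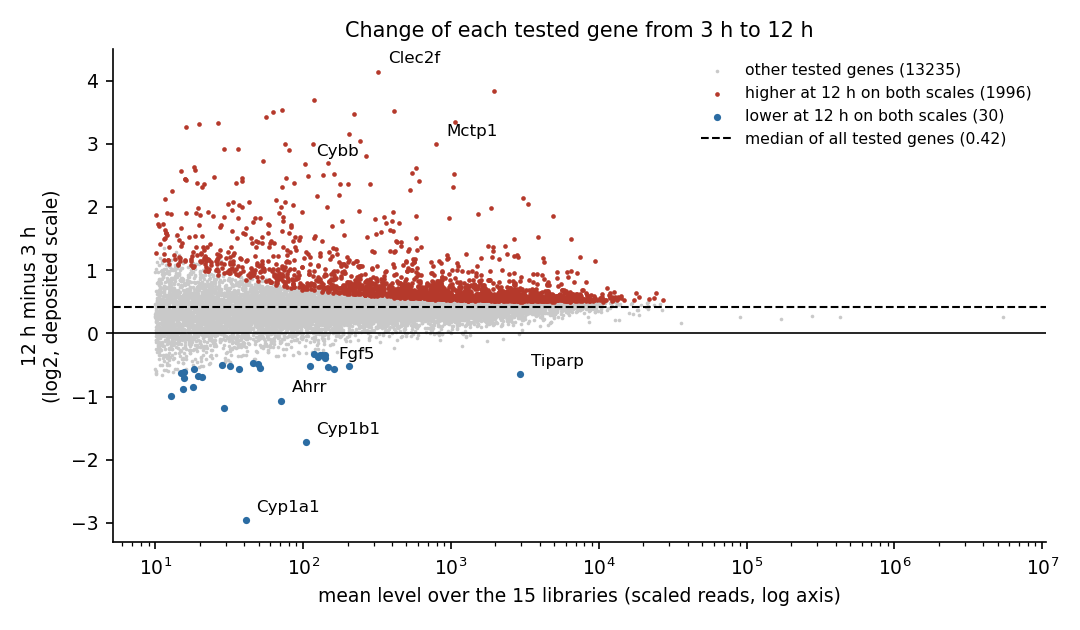
Log2 difference of 12 h against 3 h on the deposited scale (vertical axis) against the mean level over the 15 libraries in scaled reads (logarithmic horizontal axis) for each of 15261 tested genes, with genes called on both scales coloured. Most genes sit near the median of 0.42, the 30 falls lie below 0, and Clec2f and Cyp1a1 mark the ends.

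Some risen genes lay close to risen LTR copies. An LTR copy that itself rose on both scales lay within 10 kb of 311 of 15261 tested genes (2.04%), of 58 of the 812 newly risen genes (7.14%) and of 12 of the 68 that rose in both steps (17.6%). It lay near 43 of the 165 genes that rose over 2-fold on both scales (26.1%) and near 5 of the 352 that fell and then rose (1.42%). Mmp12 and Mmp1b had 3 such copies each, Akr1c21 and Cd209c had 5 each, and Cyp2b23 had 6. The steepest copy was the same for Mmp12 and Mmp1b (MMERVK9E_I-int_dup711), so they are not separate cases. Other neighbouring genes may also share copies in these counts. Clec2f and Clec2g had none. Reads that run from a copy into a gene, or copies inside a gene's own unit, would count in the gene, and their part in these rises was not tested.

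The RefSeq promoter window, 250 bases before the start on GRCm38.p6, overlapped an LTR copy in 69 of 11410 tested genes with a window (0.605%) and in 4 of 117 genes that rose over 2-fold (3.42%). Nat8f2 is shown because 184 bases of its window (chr6:85869138-85869387, minus strand) lie in the LTR copy ERVB7_2B-LTR_MM_dup173. Capitals mark the bases inside the copy, which rose by a log2 difference of 2.19 from 3 h to 12 h.
Nat8f2: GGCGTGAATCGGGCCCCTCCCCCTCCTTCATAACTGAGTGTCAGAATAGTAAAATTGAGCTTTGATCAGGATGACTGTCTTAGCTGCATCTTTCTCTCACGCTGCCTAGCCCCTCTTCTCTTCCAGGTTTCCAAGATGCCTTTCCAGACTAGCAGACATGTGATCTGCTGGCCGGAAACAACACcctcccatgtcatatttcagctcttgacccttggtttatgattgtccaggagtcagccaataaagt
Nat8f2 itself went from 8.78, 4.45 and 4.65 scaled reads at 3 h to 46.5, 61.9 and 50.9 at 12 h, with no overlap. Copy and gene lie on the same strand, and whether transcription starts in the copy was not tested.

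Genes that had fallen by 3 h and then rose formed the group with the longest gene bodies. Their median span was 98.2 kb, against 23.9 kb over all tested genes and 46.3 kb for newly risen genes. The 218 genes that fell in both steps after rescaling had a median span of 79.8 kb, so long bodies were not particular to genes that then rose. The median level of genes that fell and then rose was also higher, at 1596 scaled reads against 306, 514 and 731 in the same order. The values are not divided by length, and span and level were not told apart. The median member on both scales had a rescaled log2 difference of -0.21 at 3 h against 0 h, of 0.20 from 3 h to 12 h, and of -0.01 at 12 h against 0 h. Of the 352, 255 had no rescaled call at 12 h against 0 h, 52 stood above 0 h and 45 stayed below it. The rescaled rises of the whole interval were also more frequent in long genes, while the falls were not. Of the shortest genes (up to 9.85 kb) 158 rose and 366 fell. Of about as many of the longest genes (from 58.8 kb) 987 rose and 360 fell. The rescaled medians of these groups were -0.05 and 0.05.

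The steepest of these genes did not stop at the 0 h level. Etv1 (chr12:38780258-38868215), an ETS-family transcription factor gene, held 1267, 1488 and 1397 scaled reads at the start, 1076, 982 and 1167 at 3 h, and 2401, 3269 and 2701 at 12 h. Its rescaled log2 difference was -0.13 in the first step and 0.95 ± 0.04 in the second (limma, adjusted p = 7.5e-19). Nlrp9b (chr7:20008023-20062938), an innate immune sensor gene, went from 178, 135 and 185 at 3 h to 431, 499 and 441 at 12 h, above its 215, 265 and 236 at 0 h (rescaled 1.05 ± 0.07, limma adjusted p = 3.4e-14). Adamts6, an extracellular metalloprotease gene, Col5a2, a collagen chain gene, Pcdh11x, a protocadherin gene, and Thsd7a, a thrombospondin-domain gene, rose by rescaled log2 differences of 0.96, 0.83, 0.67 and 0.65 after first steps of -0.21, -0.24, -0.29 and -0.19. At 12 h all 6 of these genes were called above 0 h.

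The 5 genes that rose by 3 h and then fell on both scales were Cyp1a1, Cyp1b1, Ahrr, Tiparp and Ccno, and the first 4 are known targets of AhR. Cyp1a1 and Cyp1b1 encode cytochrome P450 enzymes, Ahrr the repressor of the receptor, and Tiparp an ADP-ribosyltransferase that also restrains it. Cyp1a1 (chr9:57687928-57703824) held 7.32, 6.65 and 4.29 scaled reads at the start, 140, 129 and 133 at 3 h, and 20.3, 11.8 and 18.4 at 12 h. The 3 groups did not overlap, so that the second step, a rescaled log2 difference of -3.35 ± 0.23 (limma, adjusted p = 4.3e-13), left it above 0 h by 1.15. Cyp1b1 (chr17:79706953-79715041) held 32.5, 34.1 and 41.1 at the start, 215, 231 and 219.5 at 3 h, and 52.4, 78.2 and 71.1 at 12 h (second step -2.14 ± 0.12 rescaled, limma adjusted p = 3.7e-15). Ahrr (chr13:74211118-74292331) held 50.4, 49.9 and 38.6, then 145, 130 and 152, then 69.3, 67.3 and 65.8. Both stayed above 0 h, by rescaled log2 differences of 0.69 and 0.37.

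Tiparp (chr3:65528447-65555518) overlapped its 0 h level again at 12 h. It held 2529, 2848 and 2604 scaled reads at the start, 4131, 3988 and 4546 at 3 h, and 2548, 3109 and 2460 at 12 h. Its second step was -1.06 ± 0.04 after rescaling (limma, adjusted p = 5.5e-20), and at 12 h it stood -0.16 from 0 h on that scale. Ccno, a cyclin gene of multiciliated cells, went from 62.8, 63.0 and 75.2 at 3 h to 44.0, 50.9 and 41.2 at 12 h (rescaled -0.96 ± 0.13, limma adjusted p = 1.6e-06). The list of 13 AhR targets also holds the receptor gene Ahr and its partner gene Arnt, and 8 of the 13 were tested. On the deposited scale 3 rose and 4 fell (median -0.31), beside 72.9% and 0.197% of all genes. After rescaling 1 rose and 5 fell (median -0.73), beside 13.1% and 8.83% of all genes. From 0 h to 3 h, 6 of the 8 had risen and 1 had fallen after rescaling, beside 4.98% and 8.13% of all genes. The riser from 3 h to 12 h after rescaling was Arnt, which encodes the dimer partner of AhR, at 0.25 ± 0.03 (limma, adjusted p = 7.2e-07). The target Nqo1, a quinone reductase gene, went from 286, 274 and 313 to 224, 356 and 323; its groups overlapped, and its log2 difference was 0.02 on the deposited scale and -0.39 after rescaling.

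The promoter windows of the 4 AhR targets among these genes are shown because each holds the core letters to which the receptor and its partner bind. The motif searched was GCGTG, or CACGC on the other strand, and capitals mark it. On GRCm38.p6 the windows are chr9:57697363-57697612 (plus strand), chr17:79715062-79715311 (minus), chr13:74292332-74292581 (minus) and chr3:65528197-65528446 (plus), in the order of the lines.
Cyp1a1: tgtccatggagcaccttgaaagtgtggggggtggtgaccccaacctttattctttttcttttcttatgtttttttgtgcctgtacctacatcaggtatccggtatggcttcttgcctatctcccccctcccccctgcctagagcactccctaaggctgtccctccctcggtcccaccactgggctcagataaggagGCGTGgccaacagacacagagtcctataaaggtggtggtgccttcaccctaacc
Cyp1b1: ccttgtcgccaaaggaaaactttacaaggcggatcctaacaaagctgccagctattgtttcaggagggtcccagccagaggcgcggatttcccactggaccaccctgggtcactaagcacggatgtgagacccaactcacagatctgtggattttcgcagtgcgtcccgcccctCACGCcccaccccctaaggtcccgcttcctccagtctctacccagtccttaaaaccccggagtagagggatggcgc
Ahrr: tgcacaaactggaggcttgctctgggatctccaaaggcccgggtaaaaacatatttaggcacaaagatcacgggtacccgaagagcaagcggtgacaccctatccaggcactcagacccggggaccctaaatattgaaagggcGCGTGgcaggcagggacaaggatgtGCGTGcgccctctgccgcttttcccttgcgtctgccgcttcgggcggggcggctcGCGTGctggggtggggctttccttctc
Tiparp: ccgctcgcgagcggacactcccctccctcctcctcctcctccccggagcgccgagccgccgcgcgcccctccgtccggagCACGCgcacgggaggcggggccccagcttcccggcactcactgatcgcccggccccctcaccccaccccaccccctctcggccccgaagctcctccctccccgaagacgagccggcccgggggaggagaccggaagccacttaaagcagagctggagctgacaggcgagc
The motif occurred once in each of the Cyp1a1, Cyp1b1 and Tiparp windows and at 3 places in that of Ahrr. It occurred in 7624 of 27025 RefSeq promoter windows of this length (28.2%) and in 6 of 11 windows of the AhR list, so these letters alone are common. The gene unit of Cyp1a1 in the files begins upstream of the RefSeq start. A match describes letters and shows no binding.

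**Figure D3:**
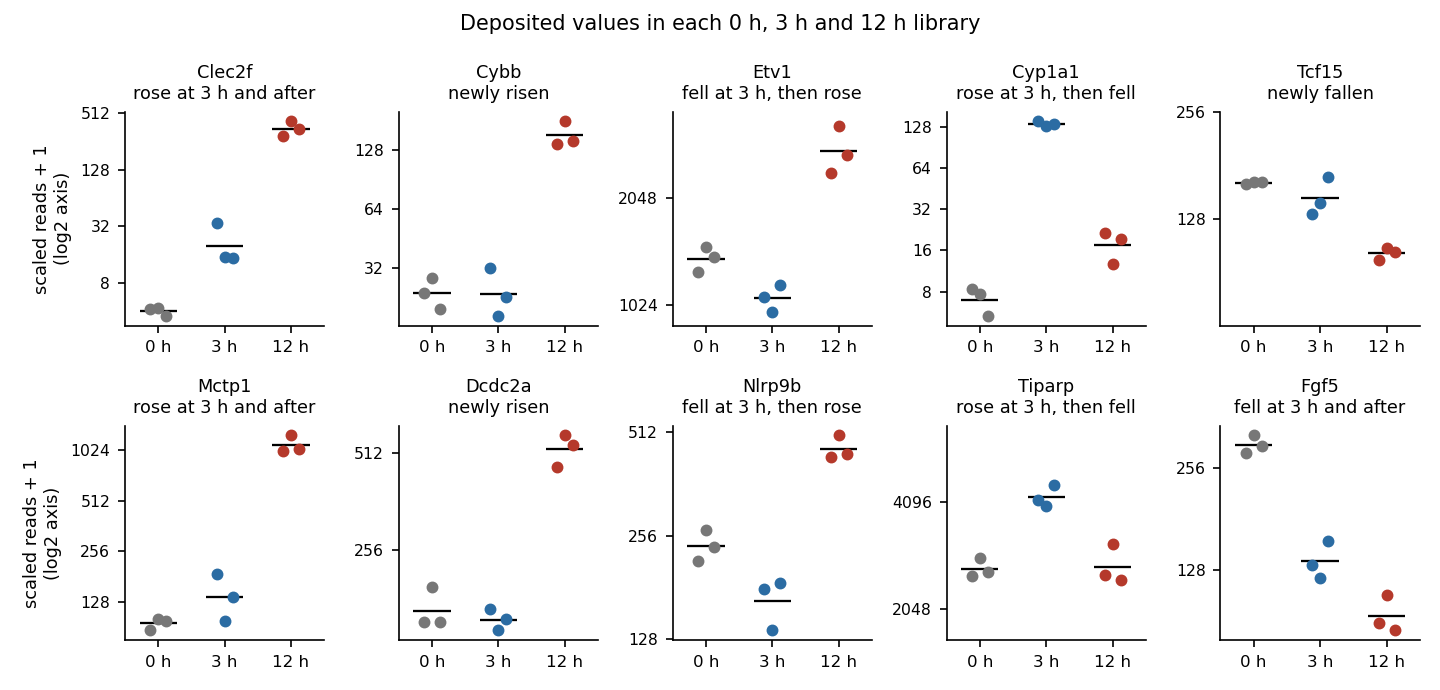
Scaled reads + 1 per library (log2 vertical axis) at 0 h, 3 h and 12 h (horizontal axis) for genes of each path; points are libraries and bars are means of 3. Cyp1a1 and Tiparp peak at 3 h, Etv1 dips at 3 h and ends above 0 h, and Fgf5 falls in both steps.

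Few genes fell from 3 h to 12 h on the deposited scale, and 4 of the 30 did so by over 2-fold. Of the newly fallen, Tcf15 (chr2:152143609-152149096), a bHLH transcription factor gene, held 159, 161 and 162 scaled reads at the start, 131, 141 and 167 at 3 h, and 97.2, 105.5 and 102.7 at 12 h. The 12 h libraries lay below all others, with a log2 difference from 3 h of -0.51 ± 0.15 and of -0.93 ± 0.10 after rescaling (limma, adjusted p = 7.2e-09). Ckmt2, a mitochondrial creatine kinase gene, Crispld2, which encodes a secreted protein, and Aoc3, an amine oxidase gene, fell by rescaled log2 differences of -0.80, -0.79 and -0.76. Their deposited log2 differences were smaller. The deposited call of Crispld2, at -0.38, was lost when 3 h replicate 3 or 12 h replicate 1 was left out, at -0.26 and -0.29. That of Aoc3, at -0.34, was lost without 3 h replicates 1 and 3 and 12 h replicates 2 and 3, at -0.33, -0.25, -0.34 and -0.34.

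Among genes that fell in both steps, Fgf5 (chr5:98254184-98277033), a growth factor gene of the early epiblast, held 282, 318 and 297 scaled reads at the start, 132, 121 and 155 at 3 h, and 88.8, 107 and 84.2 at 12 h. Its second step was -0.54 ± 0.15, or -0.95 ± 0.09 after rescaling (limma, adjusted p = 1.9e-09), as large as the rescaled first step of -0.90. Enpp2, which encodes the lysophospholipase autotaxin, went from 179, 192 and 189 at 3 h to 122, 146 and 112 at 12 h. Itga10, an integrin chain gene, went from 239, 238 and 271 to 142, 204 and 179. Fgf17, another growth factor gene, and Glra2, a glycine receptor gene, fell by rescaled log2 differences of -0.90 and -1.23. The deposited call of Fgf17 was lost without 3 h replicates 2 and 3 and without 12 h replicate 1, at -0.41, -0.45 and -0.42. None of the 12 h libraries of these 5 genes reached the lowest 3 h library.

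Gene lists of tissue and pathway were described by counts and medians, beside 13.1% risen and 8.83% fallen of all genes after rescaling. The same shares of all genes were 72.9% and 0.197% on the deposited scale. From 0 h to 3 h they were 4.98% and 8.13% after rescaling. A gene was tested only with a mean of at least 10 scaled reads over all 15 libraries, and in 3 lists of genes with low levels at 3 h many members were below it. A member of these lists could pass through its later libraries alone, so they are given by the sum over every listed gene in the table, with no minimum, and by single members. The 256 olfactory and vomeronasal receptor genes, of which 26 passed the minimum, summed to 727, 636 and 714 scaled reads at 3 h and 1315, 1645 and 1475 at 12 h. Of these, Vmn2r20 rose by a rescaled log2 difference of 3.04 and Vmn2r22 by 2.59. The 13 genes of the Clec2 and Klrb1 cluster in the table, of which 7 passed, summed to 265, 186 and 196 at 3 h and 1235, 1617 and 1341 at 12 h. Most of the 12 h sum lay in Clec2f, Clec2g and Clec2i, and the first 2 were already named for their steep rises. At 12 h Clec2f held 293, 418 and 346 scaled reads and Clec2g 539, 720 and 641, so the sum does not describe the whole cluster. Clec2i went from 50.0, 51.5 and 44.98 scaled reads to 254, 299 and 221, and Clec2d rose by 0.74. Both sums were without overlap between the times on the deposited scale. On that scale the sum over genes other than Rn45s also rose, 1.36-fold and without overlap. The list sums were not rescaled, so they include this general shift.

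The 31 genes in the table of the 2-cell-like state, a rare state of ES cells that resembles the early embryo, summed to 273, 245 and 250 scaled reads at 3 h and 434, 571 and 518 at 12 h. These sums did not overlap either, again on the deposited scale with its general shift, and 20 of the 31 genes passed the minimum. Zscan4f went from 18.2, 15.9 and 11.6 to 53.3, 47.3 and 52.6 (rescaled 1.29 ± 0.16, limma adjusted p = 2.2e-07), and Zscan4d rose by 1.11. Of 29 tested germline genes 13 rose and 2 fell after rescaling (median 0.16), and 17 had risen by 3 h. Stk31, a germ cell kinase-like gene, went from 1225, 999 and 1190 to 2613, 3482 and 2843, and Tex101, a germ cell surface protein gene, rose by 1.67 after rescaling. Syce1, a synaptonemal complex gene, had overlapping groups and differences of -0.03 on the deposited scale and -0.44 after rescaling (limma, adjusted p = 0.0025). Of 32 tested heterochromatin and silencing factors 11 rose and 1 fell after rescaling (median 0.07). Zfp37, a KRAB zinc finger gene, went from 467, 437 and 524 to 968, 1236 and 1065, Atf7ip, which encodes a partner of SETDB1, rose by 0.22, and Cbx1, which encodes HP1 beta, was at 0.27 on the deposited scale, a call lost without 3 h replicates 1 and 2 and 12 h replicates 2 and 3 (0.27, 0.21, 0.18 and 0.26), and at -0.15 after rescaling.

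Naive pluripotency genes lagged behind the median gene. Of 22, 2 rose and 12 fell after rescaling (median -0.18), while on the deposited scale 10 rose and 1 fell (median 0.23). Nanog, the transcription factor of naive pluripotency, held 1245, 1207 and 1320 scaled reads at 3 h and 999.9, 1397 and 1274 at 12 h. Its groups overlapped, and its log2 difference was -0.05 on the deposited scale and -0.47 after rescaling (limma, adjusted p = 1.3e-10 on the rescaled scale). Nr0b1, which encodes the nuclear receptor DAX1, was at -0.33 and -0.74, with overlapping deposited values; its deposited call was lost without 3 h replicates 1 and 3 and 12 h replicates 1 and 3, at -0.36, -0.23, -0.30 and -0.25. Zfp42, which encodes REX1, went the other way, from 1918, 1635 and 1851 to 3669, 4750 and 4333 (rescaled 0.82 ± 0.04, limma adjusted p = 4.6e-18), and had 1 risen LTR copy within 10 kb. The other riser after rescaling was Dppa4, at 0.16. Of 20 tested epiblast and germ layer regulators 4 rose and 4 fell after rescaling (median 0.03), after 1 had risen and 10 had fallen in the first step. Otx2 and Wnt3, regulators of the epiblast and of the primitive streak, each rose by 0.34 after rescaled first steps of -0.61 and -0.45, beside the continued fall of Fgf5.

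Housekeeping and stress lists changed call with the scale. Of all tested genes 72.9% rose and 0.197% fell on the deposited scale, and 4.98% had risen in the first step after rescaling. Of 64 replication-dependent histone genes 3 rose on the deposited scale and 0 rose and 54 fell after rescaling (median 0.17 and -0.24). The largest rescaled fall, Hist2h2be, was -0.49 with overlapping libraries. Of 20 cholesterol synthesis genes 10 rose on the deposited scale, and 1 rose and 13 fell after rescaling (median -0.17), where 8 had risen in the first step. The riser was Idi1, an isoprenoid isomerase gene with a risen LTR copy within 10 kb (463, 429 and 485 to 753, 933 and 777). Of 20 genes of the integrated stress and unfolded protein response 10 rose on the deposited scale, and 1 rose and 11 fell after rescaling (median -0.17), where 8 had also risen in the first step. The riser was the stress transcription factor gene Atf5 at 0.38, Chac1, a glutathione-degrading enzyme gene, was at -0.43 after a first step of 0.60, and Sdf2l1, an endoplasmic reticulum chaperone component gene, was at -0.53. Cytosolic ribosomal protein genes gave 74 rises and 0 falls of 84 on the deposited scale and 0 and 15 after rescaling.

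Of 345 tested Zfp-named zinc finger genes 45 rose and 23 fell (median 0.00), of 20 p53 targets 0 rose and 1 fell, and of 18 interferon and RNA sensing genes 1 rose and 1 fell. On the deposited scale these 3 lists gave 286, 16 and 8 rises and no falls, beside 72.9% risen and 0.197% fallen of all tested genes. Of 27 tested immediate early genes 9 rose and 2 fell after rescaling (median 0.07), and of 11 tested fibroblast genes 2 rose and 0 fell. After rescaling 8 rose and 2 fell of 34 imprinted genes, 3 rose and 5 fell of 18 targets of TGF-beta and BMP, 2 rose and 5 fell of 14 circadian clock genes, and 1 rose and 4 fell each of 12 targets of LIF and STAT3 and of 14 genes of the NRF2 and glutathione list.

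**Figure D4:**
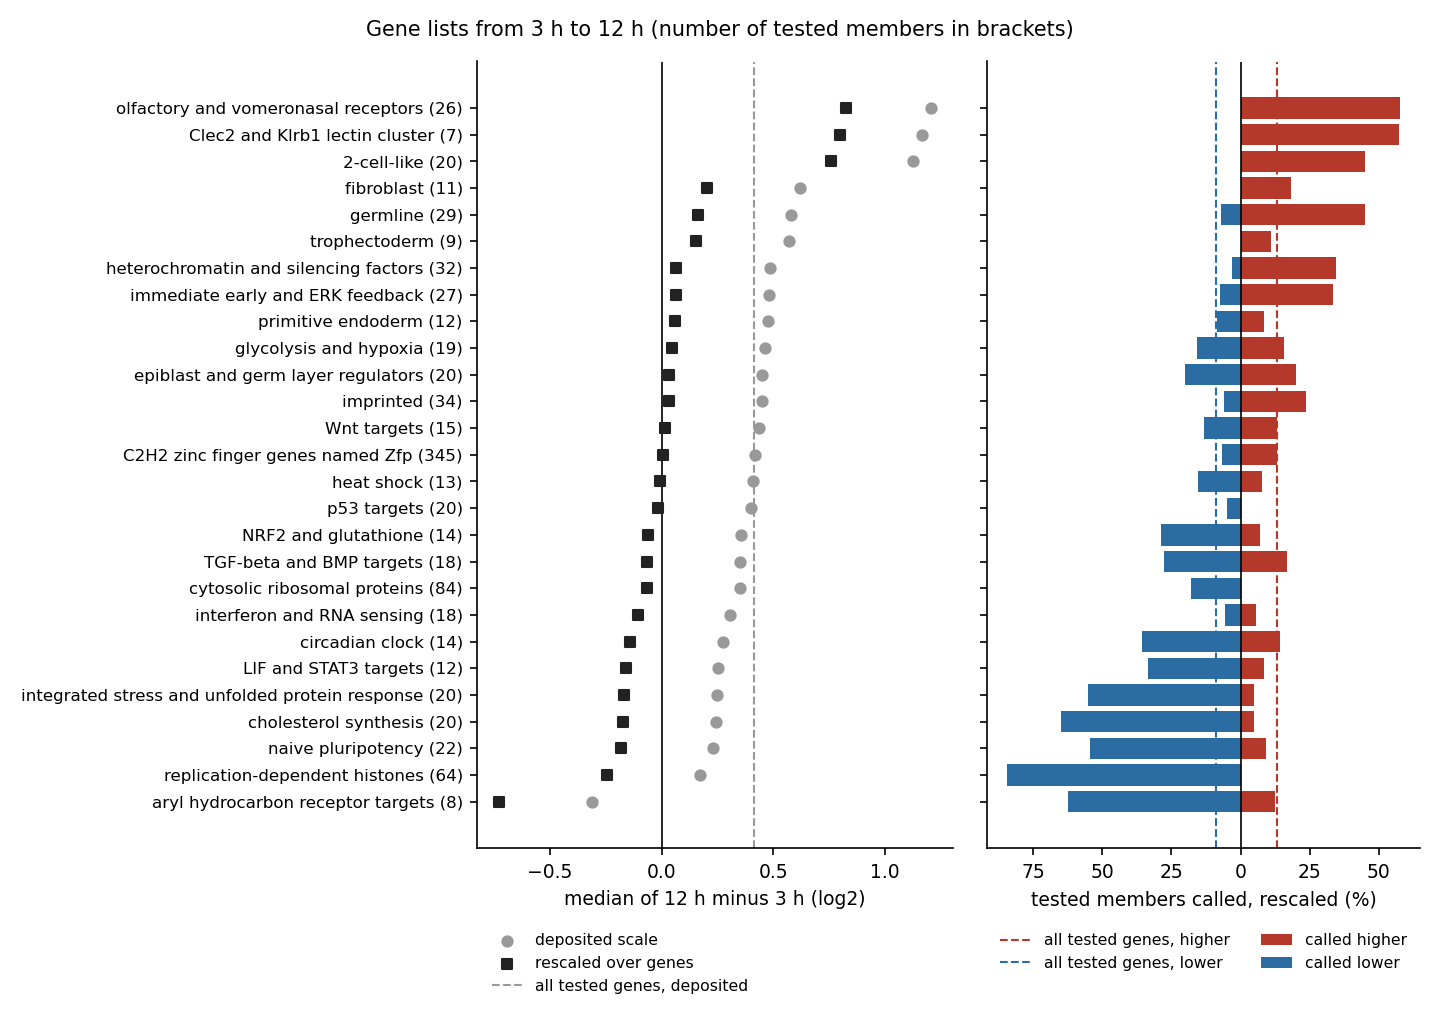
Median log2 difference of 12 h against 3 h per gene list (left panel) and the percentage of tested members called higher or lower after rescaling (right panel), with dashed lines for all tested genes, grey points for the deposited scale and black for the rescaled one, and the number of tested members in brackets. The list of AhR targets, which also holds Ahr and Arnt, stands at the bottom at -0.73 after rescaling. The high position of the olfactory and vomeronasal receptor, lectin and 2-cell-like lists, of which 26, 7 and 20 genes were tested, is set in part by the minimum mean.

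Repeat families rose more widely than genes. Of 774 tested families 602 (77.8%) rose and 0 fell on the deposited scale, and 204 (26.4%) rose and 13 (1.68%) fell after rescaling, with medians of 0.54 and 0.13. From 0 h to 3 h, 1.55% had risen and 1.94% had fallen (5.04% and 0.129% after rescaling), and from 0 h to 12 h, 32.9% and 0.388% (27.5% and 1.55%). On both scales 134 families were newly risen and 12 rose in both steps, and no family fell and then rose on both. MMERVK10C-int, the internal part of an endogenous retrovirus, led: it held 8871, 9687 and 8912 scaled reads at the start, 30714, 21191 and 22542 at 3 h, and 124153, 156865 and 125704 at 12 h. The second step of 2.46 ± 0.12, or 2.04 ± 0.08 after rescaling (limma, adjusted p = 1.6e-18), followed a rescaled first step of 1.66. RLTR10C, an LTR family, went from 1882, 1411 and 1611 to 6678, 8863 and 8817 (rescaled 1.89 ± 0.06). MuRRS4-int and RLTR45-int had log2 differences of 0.14 and 0.11 at 3 h that did not pass the test on the deposited scale (0.37 and 0.35 after rescaling, which did). They then rose by 1.78 and 1.59 after rescaling, RLTR45-int from 901, 603 and 712 to 2649, 3412 and 2804. IAPLTR3-int, a part of intracisternal A particles, rose by 1.65.

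Retroviral groups differed in how they shared in the rise. The copies of MMERVK10C and RLTR10 summed to 5.19 times the 3 h signal at 12 h, or 3.87 times after rescaling, and 599 of 878 tested copies rose after rescaling. IAP copies reached 1.80 times after rescaling, with 21 of 24 families and 299 of 913 copies risen. Their most abundant family, IAPEz-int, went from 5323, 4429 and 5155 to 12227, 14821 and 12966 (rescaled 1.01 ± 0.04, limma adjusted p = 1.9e-17). VL30 and MuLV copies reached 1.55 times, MMERVK9 and RLTR9 copies 1.54 times and RLTR13, ERVB4 and RLTR44/45 copies 1.48 times, with RLTR1B-int at 0.73, MMERVK9C_I-int at 0.62 and RLTR13G at 0.31. MERVL, the retrovirus of the 2-cell-like state, reached 1.31 times, with MERVL-int going from 2002, 1821 and 2001 to 3260, 4053 and 3708. ETn/MusD copies reached 1.24 times, with 9 of 10 families (median 0.66) and 255 of 640 copies risen after rescaling, while their most abundant family, MMETn-int, was at 0.15. A copy had to pass the same minimum mean over all 15 libraries, so the counts of copies only describe those that passed, while the summed signal holds every copy.

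Young L1 elements reached 1.27 times after rescaling, with 6 of 6 families risen and L1Md_T at 0.37. Older L1 elements reached 1.14 times, with 34 families risen and 2 fallen of 100. The major satellite GSAT_MM, the pericentromeric array that carries H3K9me3, went from 1104, 909 and 1086 to 1647, 2063 and 1876 (rescaled 0.43 ± 0.05, limma adjusted p = 8.1e-08). After rescaling the summed signal of the SINE group B1 was at 0.934 times and that of B2 and B3 at 0.864 times, against 1.25 and 1.16 times on the deposited scale. The SINE groups B4 and ID were at 1.03 times after rescaling, with 1 family risen and 0 fallen of 7. B2_Mm1t, at 18417, 16860 and 18781 and then 17225, 19670 and 18276, had overlapping groups and differences of 0.03 and, after rescaling, -0.39. B2_Mm1a was at 0.07 and -0.34.

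Of 13519 tested single copies 3611 (26.7%) rose and 40 (0.296%) fell on the deposited scale, and 1965 (14.5%) rose and 284 (2.1%) fell after rescaling. From 0 h to 3 h, 2.5% had risen and 0.266% had fallen (3.5% and 0.111% after rescaling), and from 0 h to 12 h, 20.8% and 1.83% (18.6% and 3.98%). On both scales 1408 copies were newly risen, 297 rose in both steps, 7 fell and then rose and 36 were newly fallen. The steepest was MMERGLN-int_dup619 (chr10:26927401-26934948), 8.75 kb from Arhgap18, which went from 29.7, 0 and 3.88 to 314, 509 and 567. The copy MMERVK10C-int_dup1576 (chr8:47473412-47473904) went from 3.38, 12.1 and 0 to 132, 242 and 168. MMERVK10C-int_dup1523 (chr8:4681510-4682446) was listed at 0 in all 3 libraries at 3 h and at 51.6, 73.7 and 31.6 at 12 h. Where a copy has near-identical relatives, the place of its reads is uncertain.

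Falls of single copies were few and shallow in reads. MMERGLN_LTR_dup182 (chr7:52333740-52334170) went from 48.6, 19.7 and 44.98 to 0.845, 7.28 and 13.2, and B1_Mm_dup27612 (chr11:23819511-23819657) from 16.2, 17.8 and 20.2 to 8.45, 6.37 and 11.4. The deposited call of the first was lost without 3 h replicates 1 and 3 and 12 h replicates 1 and 2 (-2.36, -2.42, -1.74 and -2.82), and that of the second without 3 h replicate 3 and 12 h replicate 2 (-0.92 and -0.81). Copies of certain widths carried signal that differed between libraries of 1 group. Those of exactly 206 bp summed to 7724 scaled reads in 12 h replicate 1 and to 888 to 1392 in the other 5 libraries. Leaving out the 1305 tested copies of 190 to 230 bp changed the number of called copies and families by less than 1.5 times, but deposited falls of copies went from 40 to 26, and the source of this signal was not tested.

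Non-coding units moved by position. Of 15730 tested, 5883 (37.4%) rose and 209 (1.33%) fell on the deposited scale, and 3640 (23.1%) rose and 2223 (14.1%) fell after rescaling, with medians of 0.33 and -0.07. A unit could pass the minimum mean through its later libraries alone, so shares and counts by position only describe the units that passed. Among these, units over copies of ERVK retroviruses had the highest share of rises. Of 2676 such units 69.4% rose and 2.91% fell after rescaling, with a median of 1.28. Units over other LTR copies came next, with 32.7% risen of 1173. Divergent units, which start within 1 kb of a gene and run the other way, gave 2.34% risen and 12.6% fallen of 3158, and units antisense inside a gene 6.23% and 23.3% of 2473. Both had risen more often on the deposited scale, in 16.7% and 16.9%. From 0 h to 3 h, 7.74% of the tested units had risen and 8.06% had fallen (11% and 1.89% after rescaling), and from 0 h to 12 h, 29.4% and 11.1% (26.8% and 21.8%). Of 1925 units newly risen on both scales 923 lay over ERVK copies, as did 676 of 1099 that rose in both steps, and 61 of 181 newly fallen on both lay antisense inside a gene.

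The steepest unit (chr10:33891001-33898801) overlapped the IAP element IAPLTR1_Mm_dup939, 6.31 kb from Rsph4a, and went from 4.73, 2.55 and 0 scaled reads to 107, 113 and 96.5 (rescaled 4.91 ± 0.36, limma adjusted p = 1e-10). A unit with the copies ETnERV2-int_dup225 and MMERVK9C_I-int_dup209 (chr3:45103201-45146201) went from 65.5, 11.5 and 6.98 to 594, 821 and 732. A unit with ETn and RLTR13G copies (chr4:90226601-90239001), 0.914 kb from Zfp352, went from 28.4, 5.09 and 2.33 to 235, 332 and 271. Here too 3 h replicate 1 was the highest library at 3 h. Among the steepest falls, a unit antisense in Pfkfb3 (chr2:11520401-11520801) went from 20.9, 17.2 and 18.6 to 2.54, 7.28 and 12.3. A unit antisense in Cntrob (chr11:69318201-69318601) went from 14.9, 11.5 and 15.5 to 5.07, 5.46 and 3.51. The sources used here do not give the strand setting of the counting, so antisense units and their genes cannot be told apart with certainty.

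**Figure D5:**
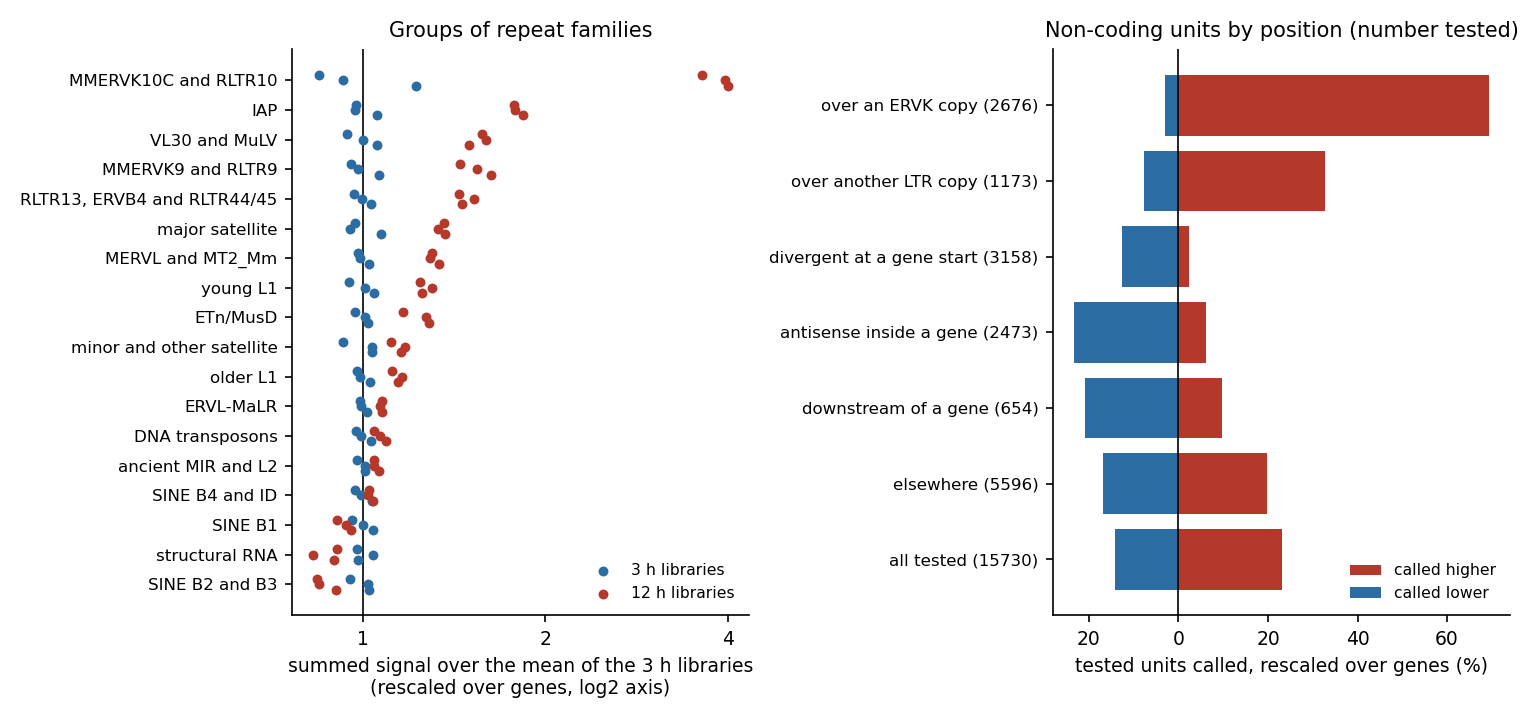
Summed signal of each repeat group in the 3 h and 12 h libraries after rescaling, relative to the mean of the 3 h libraries (log2 axis, points are libraries, left panel), and the percentage of non-coding units called higher or lower after rescaling, by position (right panel). The MMERVK10C and RLTR10 group reaches a mean of 3.87 times, SINE B1 and SINE B2 and B3 lie at 0.934 and 0.864 times, and units over ERVK copies have the highest share of rises, 69.4%. The right panel holds only units that passed the minimum mean, which a unit could do through its later libraries alone.

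The authors' deposited table calls each unit against 0 h and makes no call between 3 h and 12 h. Its calls come from the authors' own fit and cutoff, which may differ from those used here, so the counts are not like for like. In the authors' deposited table, 129 of the 812 genes newly risen on both scales are called up at 12 h and 0 at 3 h. Of the 68 that rose in both steps, the authors' deposited table calls 12 up at 3 h and 67 up at 12 h. All 352 genes that fell and then rose are called unchanged at 3 h in the authors' deposited table. Their median rescaled log2 difference at 3 h against 0 h was small, at -0.21. Of the 5 genes that rose and then fell, the authors' deposited table calls 3 up at 3 h and 1 up at 12 h. Of the 17 newly fallen genes, the authors' deposited table calls 2 down at 12 h, and of the 5 that fell in both steps it calls 1 down at 3 h and 5 at 12 h.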

How the data were processed

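TT-seq reads of 15 libraries were processed by the authors. The submitters' processing notes name STAR 2.5.2a, DESeq2, deepTools, mm10 and GRCm38. The sources used here do not give the counter, annotation, strand setting or handling of reads with several positions. The deposited signal is a read count per unit times 1 factor per library: 99.9969% to 99.9991% of the nonzero values per library came out as whole reads (tolerance 0.05). The authors' deposited calls against 0 h are text of another unit. Genes, repeat copies, family sums and non-coding units were each fitted over all 15 libraries (limma 3.58.1, R 4.3.3, intensity trend) on log2(value + 1), for units with a mean of at least 10, with Benjamini-Hochberg adjustment over all tested units of the class and a threshold of 0.05. Each fit was repeated after dividing by median-ratio factors over genes (rescaled). edgeR 4.0.16 on the recovered reads called 11389 genes with the deposited factors and 3658 with TMM factors; DESeq2 1.42.0 called 2665. In simulated data for this comparison of 15261 genes, 86% of 50 genes at 0.5-fold and 92% of 50 at 2-fold were found, and 9 unchanged genes were called. The simulation used the same fixed spread for all units and no error in the library factors. It therefore gives no error rate for calls that depend on the scale. Families are sums over copies, and 2 non-coding units over Rn45s were left out. Family, gene and unit lists and the members were chosen with earlier results of these data known. Named genes had ordinary symbols, calls on both scales, no overlap between 3 h and 12 h libraries and a mean above the lowest 25%, ranked by log2 difference (10 each way, 6 per path), with the 4 smallest adjusted p per list, the methyltransferase genes of the genotype, the 5 families that changed most at a mean of at least 50, the most abundant family per group, and 3 copies and 3 non-coding units each way. Nanog, Sdf2l1, Chac1, Hist2h2be, Syce1, Nqo1 and Cbx1 were chosen after their values were seen. Cyp1a1 and Ahrr were also chosen in this way, and all 5 genes that rose by 3 h and then fell on both scales are named.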

Additional observations from a re-analysis of the deposited data

How the results depend on the processing

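Scale decided most counts from 3 h to 12 h. After rescaling over genes, the called units were 3344 genes, 217 families and 2249 copies, and the gene paths held 1055 newly risen, 267 rising in both steps, 353 reverting from a fall, 86 reverting from a rise, 750 newly fallen and 218 falling in both steps, with 136 families and 1956 non-coding units newly risen. With a replicate block after rescaling these were 3460, 216, 2228, 1071, 271, 369, 88, 782, 225, 137 and 1947. With the replicate block alone, 11494 genes were called, 2519 reverted from a fall and 13 fell in both steps. Across genes, the replicate numbers showed no pairing (deviations of same-numbered libraries correlated at 0.011, -0.021 and 0.021), and 1 of 3 libraries at 3 h correlated best with its own number. Such correlations cannot see a shift shared by all genes of a library, so pairing in overall scale was not tested. edgeR with TMM factors gave 3658 genes, 216 families, 2161 copies, and paths of 232 (rising in both), 369, 106, 799 and 264 genes and 144 newly risen families. DESeq2, run for genes, gave 2665 genes and paths of 938, 192, 288, 55, 526 and 191. Without the intensity trend 789 genes reverted from a fall, 30 were newly fallen and 18 fell in both steps; with only the groups compared 17 fell in both, with the deposited factors in edgeR 14, and with no minimum mean 34 were newly fallen. The summed signal ratio after rescaling was 1.02 (genes), 1.22 (copies) and 0.986 (non-coding units), and as a share of the reads in these 3 classes 0.998, 1.1960 and 0.966.

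Leaving out each library in turn gave, on the deposited scale, 7657 to 12341 genes, 497 to 635 families, 2442 to 3835 copies and 4893 to 6355 non-coding units called. The paths ran from 703 to 4716 (newly risen), 46 to 87 (rising in both), 243 to 2731 (reverting from a fall), 4 to 5 (reverting from a rise), 5 to 20 (newly fallen) and 3 to 16 (falling in both), with 139 to 352 newly risen families and 2536 to 3218 non-coding units. Leaving out libraries after rescaling was added after seeing the data and gave 2438 to 3074 genes called, and 781 to 1080, 197 to 282, 224 to 348, 50 to 77, 491 to 771 and 143 to 209 genes in the paths. The causes of these shifts were not tested.

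Of 94 named units 72 kept direction and call under every alternative run. Nqo1 turned to -0.39 (rescaled, also with the block) and -0.38 (edgeR with TMM, DESeq2), Cbx1 to -0.15 and Suv39h2 to -0.12 in all 4 of these, B2_Mm1t to -0.39 and B2_Mm1a to -0.34 in the first 3. The deposited falls of Aoc3, Crispld2, Fgf17, Nr0b1, MMERGLN_LTR_dup182 and B1_Mm_dup27612 lost their calls without some libraries, those of Aoc3, Nr0b1 and B1_Mm_dup27612 also with only the groups compared and with no minimum mean (B1_Mm_dup27612 then at adjusted p = 0.43), and that of MMERGLN_LTR_dup182 with log2(value + 0.5). The rise of Cbx1 was also lost without the intensity trend, with only the groups compared and with no minimum mean, and the deposited rise of Atf5 lost its call in DESeq2 (adjusted p = 0.068). In simulated data, with a fixed spread and no error in the library factors, 60% of 50 copies at 2-fold were found, against 92% of 50 genes.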

Other observations

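Copies of a narrow range of widths carried signal that single libraries did not share. The copies of exactly 208 bp summed to 2483 and 3288 scaled reads in 12 h replicates 1 and 2 and to 678 to 941 in the other 4 libraries at 3 h and 12 h. Those of 210 bp summed to 2485 in 3 h replicate 2. Of the tested copies, 6 had at least 50 scaled reads in 12 h replicates 1 and 2 and under 10 in every other library. All 6 were 208 or 209 bp wide, and there were 0 such units outside 190 to 230 bp and 0 among genes or non-coding units. These values were noticed in the data, and their source was not tested.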
